A study of Mus musculus with 18 samples.

Results

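The 32 genes described here make fatty acids and build them into triglycerides. They were taken from a fixed list of gene symbols and make up 32 of the 21887 genes that RefSeq lists as protein-coding for build mm10. The list has 5 genes that supply carbon and reducing power, 3 of synthesis proper, 4 of desaturation, 5 of elongation, 12 of triglyceride assembly and 3 regulators. Each gene was taken as its annotated span with 10 kb either side for PPARg and CTCF and 5 kb either side for histone marks. The measure was the length in base pairs (bp) that called peaks cover in that window, or the percentage of the window covered. No window of one member reached another member, but 22 of the 32 windows of 10 kb hold at least 1 other gene, so a peak there need not belong to the member.

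All mice were C57BL/6, 8 weeks old and carried CTCF fl/fl alleles. The WT group lacked the Alb-Cre transgene and the KO group carried it. Alb-Cre uses the albumin promoter, so deletion is aimed at hepatocytes and the other liver cells keep the gene. Whole liver was used in 18 chromatin immunoprecipitation libraries, with 2 WT and 2 KO for PPARg, 2 and 2 for CTCF, 3 and 3 for H3K27ac (a histone mark of active promoters and enhancers), 1 and 1 for H3K4me3 (active promoters) and 1 and 1 for H3K27me3 (Polycomb repression). Sex (male), standard chow and overnight fasting are stated only for the CTCF libraries and for PPARg WT 2, KO 7 and KO 8, which were made by tagmentation. The remaining libraries, PPARg WT 4 included, were made by adapter ligation.

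In the liver, de novo lipogenesis turns citrate from mitochondria into acetyl-CoA, then into malonyl-CoA and palmitate, which is elongated, desaturated and esterified to glycerol. Insulin acts on the pathway through SREBP1c, the product of Srebf1, and glucose through ChREBP, the product of Mlxipl. PPARg is a nuclear receptor best known as a driver of fat storage in adipocytes, and in liver it is associated with fat accumulation. It binds DNA as a dimer with RXR at DR1 elements, in which the half-site AGGTCA occurs as a direct repeat with 1 base between copies. CTCF is a zinc-finger protein found at insulators and at boundaries of chromatin domains, where it halts cohesin.

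Read depth is unknown, because the files list peaks and not reads, and the number and length of peaks are given in its place. The PPARg lists covered 9.0 Mb (WT 2), 6.90 Mb (WT 4), 20.8 Mb (KO 7) and 21.1 Mb (KO 8), a ratio of KO to WT means of 2.63. The same ratio was 1.16 for H3K27ac, 0.756 for CTCF, 0.879 for H3K4me3 and 1.56 for H3K27me3. A gene therefore stands out from the lists only where its own ratio departs from these. PPARg WT 4 was also called at a looser threshold (lowest −log10 q of 1.31) than the other 3 PPARg lists (3.00 to 3.01). H3K27ac KO 4 stood apart with 126 Mb, against 78.2 to 91.5 Mb in the other 5 libraries. All 8 hepatocyte markers were covered by H3K27ac in every library, and of 4 neural stem cell markers 3 were covered in none and Nes in all. They were read because some labels carry a culture protocol for neural cells. In whole tissue, fewer cells of a type and less signal per cell cannot be told apart.

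Promoters that PPARg regions overlap were read as sequence. The summit of a region can lie outside the bases printed, so these need not be the bound bases. A region is a stretch formed by merging overlapping peaks of the libraries, called shared when every library has a peak in it, KO-only when both KO and no WT libraries do, and WT-only in the reverse case. The following are the 250 bases before the start site, 5′ to 3′ on the gene's strand, from RefSeq (GRCm38.p6), with any DR1 match in capitals. Me1 (chr9:86695915-86696164, minus strand) and Mogat1 (chr1:78510810-78511059, plus strand) lay under shared regions. So did Gpam (chr19:55127239-55127488, minus strand), and the third listed promoter of Srebf1 (chr11:60210472-60210721, minus strand) lay under one as well, with peaks of 3 of the 4 libraries over the promoter itself. Fads2 (chr19:10101504-10101753, minus strand) lay under a WT-only region and the second listed promoter of Elovl1 (chr4:118429451-118429700, plus strand) at the end of a KO-only region. These last 2 were chosen after their values were seen.
Me1: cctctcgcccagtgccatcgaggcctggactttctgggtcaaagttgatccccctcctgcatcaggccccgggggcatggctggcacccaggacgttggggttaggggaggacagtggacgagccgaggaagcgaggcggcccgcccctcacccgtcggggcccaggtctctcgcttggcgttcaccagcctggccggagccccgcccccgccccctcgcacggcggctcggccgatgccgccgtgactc
Mogat1: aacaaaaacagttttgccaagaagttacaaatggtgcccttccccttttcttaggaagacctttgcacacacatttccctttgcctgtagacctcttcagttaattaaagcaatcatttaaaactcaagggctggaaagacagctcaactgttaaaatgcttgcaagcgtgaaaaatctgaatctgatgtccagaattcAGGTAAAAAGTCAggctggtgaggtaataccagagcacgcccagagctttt
Gpam: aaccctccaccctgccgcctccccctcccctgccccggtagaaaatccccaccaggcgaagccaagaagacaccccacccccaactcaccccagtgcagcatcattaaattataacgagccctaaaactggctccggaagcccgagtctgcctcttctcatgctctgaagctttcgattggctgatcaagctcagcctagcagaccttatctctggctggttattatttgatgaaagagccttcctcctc
Srebf1: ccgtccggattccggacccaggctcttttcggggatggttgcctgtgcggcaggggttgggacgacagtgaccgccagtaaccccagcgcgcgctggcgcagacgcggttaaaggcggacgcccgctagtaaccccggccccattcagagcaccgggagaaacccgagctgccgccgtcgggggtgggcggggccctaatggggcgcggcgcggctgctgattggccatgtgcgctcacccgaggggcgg
Fads2: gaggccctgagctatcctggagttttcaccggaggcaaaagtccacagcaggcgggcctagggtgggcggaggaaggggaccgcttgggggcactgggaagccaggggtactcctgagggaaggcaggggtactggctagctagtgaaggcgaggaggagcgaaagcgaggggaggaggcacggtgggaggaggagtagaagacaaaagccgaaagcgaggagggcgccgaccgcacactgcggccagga
Elovl1: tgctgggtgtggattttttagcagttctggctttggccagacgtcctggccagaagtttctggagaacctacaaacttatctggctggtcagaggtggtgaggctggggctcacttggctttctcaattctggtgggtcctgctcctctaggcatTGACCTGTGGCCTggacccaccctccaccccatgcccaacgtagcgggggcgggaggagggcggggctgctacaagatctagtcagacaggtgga

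Of these 6 promoters, the Mogat1 and Elovl1 sequences hold a DR1 match with up to 2 mismatches on either strand. The Mogat1 match AGGTAAAAAGTCA has 2 mismatches and its centre lies at position -45 from the start site. The Elovl1 match, printed as TGACCTGTGGCCT because it reads on the opposite strand, has 1 mismatch and is centred at -89. It lies at 118429606 to 118429618, so that the KO-only region, which ends at 118429610, covers only its first bases. Across the 38 listed promoters of 26 members, these 2 were the promoters with a match, against 3.24% of all 32851 promoters. For the other motifs searched on both strands, the E-box CACGTG (6.02% of all promoters) was found at Elovl5, Lpin2, Mlxipl and Slc25a1 and the sterol element TCACNCCAC (1.05%) at Mlxipl. The CTCF core part AGNGGGCNC (5.51%) was found at Elovl6, and the NF-Y box CCAAT (33.8%) in 16 of the 38 promoters, among them those of Fasn, Me1, Gpam, Srebf1, Pklr and Thrsp. The Me1 match lies in another listed promoter of the gene than the one printed. No motif's letters contain those of another, and a match is a run of letters, not a measured site. Scd1, Scd2, Fads1, Gpd1, Dgat1 and Dgat2 are named only.

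PPARg peaks lay at nearly all of the genes in both genotypes, and more bp were covered in KO. Peaks covered 31 of the 32 genes in at least 1 library and 27 in all 4, where 46.3% and 24.98% of all genes were so covered. The exception was Elovl7, an elongase gene with no PPARg peak in any library. The median percentage covered was 1.66% in WT and 5.85% in KO, and the median difference was 3.31 percentage points, against 1.30 points over all 10134 genes with any PPARg peak. Both KO libraries exceeded both WT libraries at 26 of 31 genes, with 72.3% of the 10134 genes doing so, and the reverse held at 0 genes (1.02% of all). With limma, 15 of 31 genes rose at an adjusted p under 0.05 and 0 fell, beside 34.2% and 0.148% of all genes. Without adjustment, 22 passed a p of 0.05 with more coverage in KO and 0 with less, beside 49.97% and 0.355% of all genes. These calls rest on the unscaled lists: with every list scaled to the same total covered length, 0 of all genes passed, the median difference of the 32 genes was 0.23 points, 12 of them were lower in KO, and 15 of the 28 genes with WT coverage had a KO to WT ratio above the 2.63 of the whole lists (45.5% of all genes with WT coverage). The 12 include 4 of the 15 that rose, Agpat2, Lpin1, Dgat1 and Mlxipl. At Agpat2, Lpin1 and Mlxipl both KO then lay below both WT. Both KO stayed above both WT at Me1, Acaca, Acacb, Elovl2, Agpat3, Lpin2 and Thrsp, and the genotypes overlapped at the others that rose. The calls rest on 2 libraries per genotype. Leaving 1 out leaves a single library in that genotype, so only effect sizes are given for it. The median difference was 3.79 points without WT 2 and 2.87 points without WT 4.

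**Figure D1:**
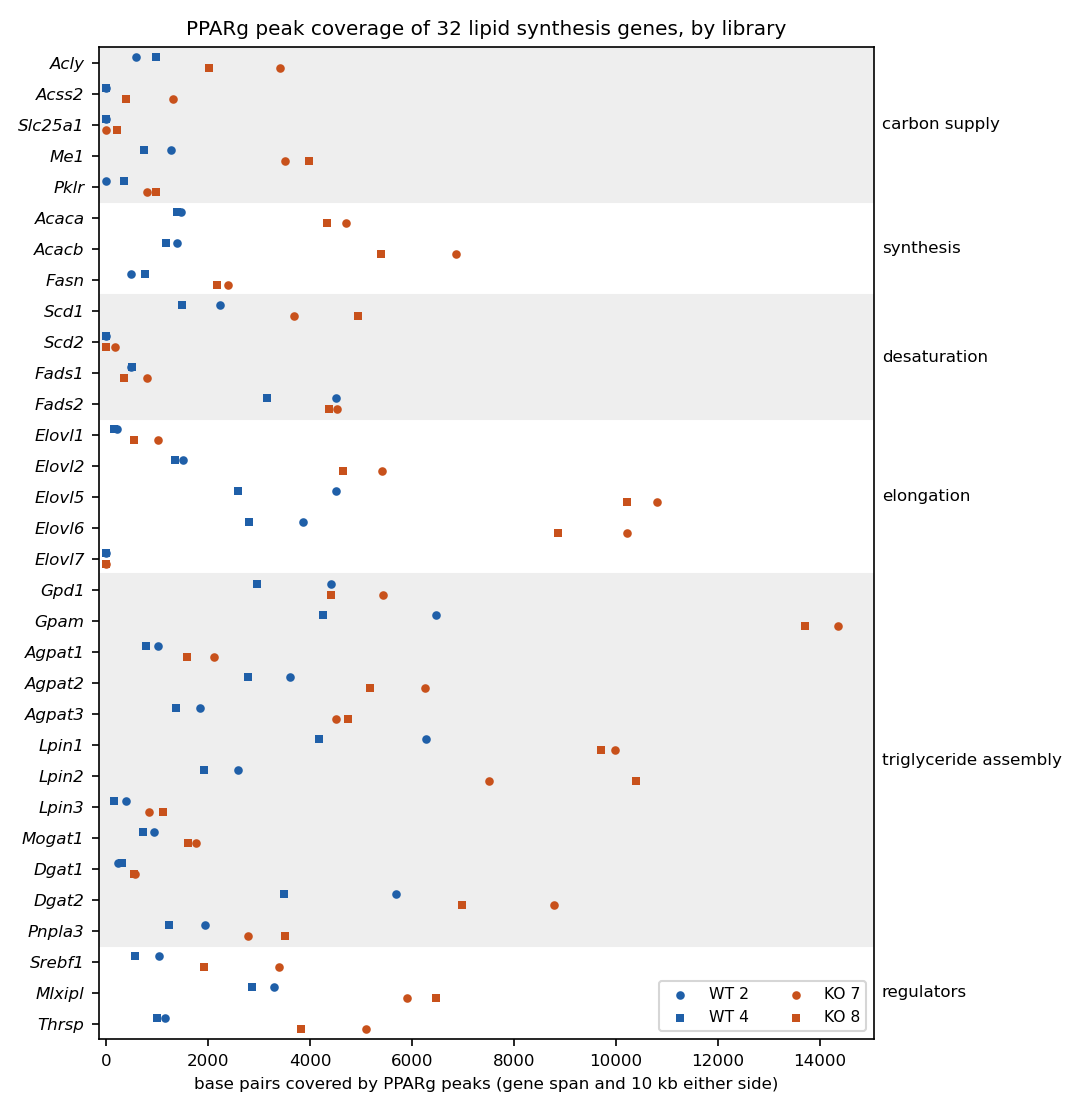
Base pairs covered by PPARg peaks in each gene's window (span and 10 kb either side), 1 point per library, WT 2 and WT 4 in blue and KO 7 and KO 8 in orange, genes grouped by step. Both orange points lie to the right of both blue points at 26 genes, with the longest coverage at Gpam (13712 and 14352 bp in KO), and Elovl7 is at 0 in all 4.

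The steps of the pathway differed in how far KO exceeded WT. Summed over the genes of a step, the ratio of mean covered length was 4.24 for carbon supply and 3.91 for synthesis. The ratio was 3.06 for elongation and 2.70 for the regulators, so these steps too lay above the 2.63 of the whole lists. It was 2.16 for triglyceride assembly and 1.52 for desaturation. Set against WT 2 alone, the WT library of the same kit as KO 7 and KO 8, the whole lists gave 2.33 and the steps gave 4.49, 3.90, 2.57, 2.44, 1.82 and 1.30 in that order. Carbon supply, synthesis, elongation and the regulators thus stayed above the ratio of the lists in both versions, the regulators by little. Triglyceride assembly and desaturation stayed below it in both. Carbon supply and synthesis started from few WT bp (1949 and 3303 bp on average over the step) and triglyceride assembly from many (29708 bp). The steps hold 3 to 12 genes each and no test of the difference between steps was made.

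**Figure D2:**
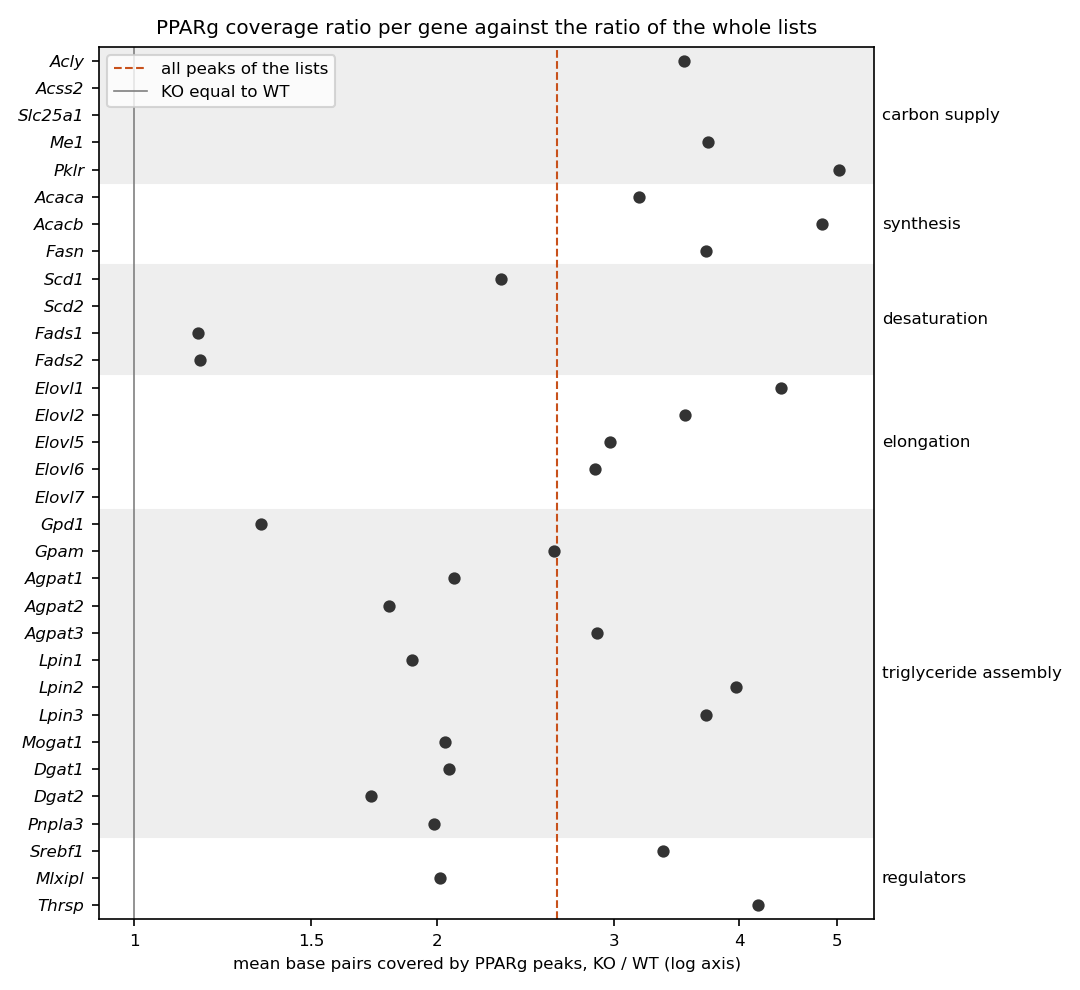
Ratio of mean PPARg covered length in KO to WT on a log axis, 1 point per gene with WT coverage, with the ratio of the whole lists (2.63) as a dashed line. All points of carbon supply, synthesis and elongation lie right of the line, from 2.87 at Elovl6 to 5.03 at Pklr, and all 3 of desaturation lie left of it.

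Against the 500 protein-coding genes nearest in span length, the 32 genes had high PPARg coverage before any comparison of genotypes. The median percentile of a member among its length-matched genes was 87.6 in WT and 90.2 in KO, and 28 (WT) and 31 (KO) of 32 lay above the median of their matched genes. That median was 0 in WT for all members but Acaca and Elovl6, and at most 0.051% in WT (Elovl6) and 0.505% in KO (Mogat1). These counts therefore say little more than that a member had a peak. By step, the WT and KO percentiles were 74.2 and 77.4 for carbon supply, 82.0 and 88.4 for synthesis, 87.5 and 78.9 for desaturation, and 90.2 and 93.0 for elongation. Triglyceride assembly stood at 93.4 and 94.6 and the regulators at 94.2 and 96.2. Desaturation was the step whose median percentile was lower in KO than in WT.

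Among the carbon supply genes, Me1 passed the test. Me1, the cytosolic malic enzyme that supplies NADPH, had 1269 bp (WT 2) and 740 bp (WT 4) against 3500 bp (KO 7) and 3977 bp (KO 8). The coverage was 0.75% ± 0.28 (SD, n = 2) in WT and 2.78% ± 0.25 (n = 2) in KO, a rise of 2.03 points (SE 0.28, adjusted p = 0.0252). Its shared region over the promoter had a fold enrichment, the authors' peak height over background, of 17.3 and 14.2 in WT and 32.1 and 34.8 in KO, with the summit at position -400 from the start site. Acly, the ATP citrate lyase that releases acetyl-CoA from citrate, had 573 and 964 bp (WT) against 3415 and 2005 bp (KO) without passing (2.71 points, SE 0.83, adjusted p = 0.0885). Pklr, the liver pyruvate kinase, had 0 and 352 bp against 802 and 967 bp (adjusted p = 0.0543), and its groups did not overlap either. Acss2, which activates acetate, was at 0 in both WT libraries and at 1297 and 374 bp in KO, and the citrate carrier gene Slc25a1 was at 0 except for 205 bp in KO 8.

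All 3 genes of fatty acid synthesis proper rose in PPARg coverage. Acacb, the acetyl-CoA carboxylase at mitochondria, had 1375 and 1159 bp (WT) against 6856 and 5396 bp (KO), a rise of 3.90 points (SE 0.50, adjusted p = 0.0233). Acaca, the cytosolic carboxylase that commits carbon to fat, had 1463 and 1380 bp against 4705 and 4325 bp (1.06 points, SE 0.19, adjusted p = 0.0368). In both genes the KO libraries lay far above the WT libraries, which differed little from each other. Fasn, the fatty acid synthase, rose by 4.24 points (SE 0.40, adjusted p = 0.0171). Its single shared region had its summit at position -6475 from the start site (chr11:120830486-120832580), with fold enrichments of 10.0 and 7.86 in WT and 21.7 and 16.0 in KO. Acacb had 3 KO-only regions and Acaca 1, and the strongest region at Acaca (chr11:84218013-84220017) went from 7.97 and 8.82 to 26.0 and 25.8.

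Desaturation was the step with the lowest summed ratio, and none of its genes passed. Scd1, the stearoyl-CoA desaturase that makes oleate, had 2226 and 1488 bp (WT) against 3674 and 4930 bp (KO), with groups apart but no call (7.35 points, SE 1.74, adjusted p = 0.0565), and its difference is -1.14 points once the lists are scaled. Of its 2 shared regions, the one at chr19:44387053-44390356 had 22.3 and 13.5 in WT and 18.0 and 19.1 in KO, while the one at chr19:44416073-44418491 had 6.99 and 4.68 against 20.04 and 23.0. The ranges of the genotypes overlapped in the first region and were apart in the second. Fads1 and Fads2, the desaturases of polyunsaturated fatty acids, overlapped between genotypes: Fads1 had 480 and 497 bp against 788 and 342 bp, and Fads2 had 4502 and 3153 bp against 4535 and 4372 bp. Scaled, both KO lay below both WT at Fads1 (-1.51 points) and Fads2 (-6.54 points). Scd2 had 170 bp in KO 7 alone.

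Fads2 was the 1 member with WT-only PPARg regions (1.64% of all genes have one), and it had 2 of them. The first, chr19:10101563-10102239, has its summit at position -237 from the start site, inside the promoter printed above, with fold enrichments of 7.44 (WT 2) and 6.47 (WT 4). A KO-only region, chr19:10102326-10103492, begins right beyond it, with 5.51 (KO 7) and 5.05 (KO 8). Both lay in chromatin with H3K27ac peaks in all 6 libraries. The second WT-only region, chr19:10056030-10056393, lies past the far end of the gene with 6.61 and 3.95 and next to a shared region. At a −log10 q of at least 10 neither WT-only region was left. With lists of equal peak number 6 members had a WT-only region, and with 1 library left out 3 to 7 did. The share of 1.64% does not apply to these settings, for which none is given.

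The elongases Elovl2, Elovl5 and Elovl6, 3 of the 4 covered members of the step, rose. Elovl5, which elongates polyunsaturated fatty acids, had 4504 bp (WT 2) and 2574 bp (WT 4) against 10813 bp (KO 7) and 10224 bp (KO 8), a rise of 8.01 points (SE 0.93, adjusted p = 0.0209). Elovl6, which takes palmitate to stearate, had 3849 and 2793 bp against 10219 and 8857 bp (4.93 points, SE 0.57, adjusted p = 0.0207). Elovl2, active on the longest polyunsaturated chains, had 1506 and 1339 bp against 5413 and 4639 bp (6.21 points, SE 0.57, adjusted p = 0.0168). All 3 kept a KO to WT ratio above that of the lists, at 2.97, 2.87 and 3.53. Elovl6 had the most KO-only regions of the list, 6, the best ranked of them at chr3:129526860-129527645 with fold enrichments of 12.02 and 8.42 in KO. The strongest elongase region was the shared one inside Elovl5 (chr9:77942247-77944988), at 29.2 and 22.4 in WT and 54.1 and 71.3 in KO. Elovl1 had 203 and 149 bp against 1014 and 536 bp, apart but not called (adjusted p = 0.100), and its WT and KO peaks did not overlap: 2 KO-only regions and 1 region of KO 7 held the KO bp, and 2 regions of single libraries the WT bp.

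In triglyceride assembly 6 of the 12 genes rose, among them Gpam, the gene with the longest PPARg coverage of the list in both genotypes. Gpam, the mitochondrial acyltransferase that starts glycerolipid synthesis, had 6474 bp (WT 2) and 4243 bp (WT 4) against 14352 bp (KO 7) and 13712 bp (KO 8). The coverage was 6.72% ± 1.98 (SD, n = 2) in WT and 17.6% ± 0.57 (n = 2) in KO, a rise of 10.9 points (SE 1.17, adjusted p = 0.0191). Gpam carried 9 shared regions, more than any other member, and 2 KO-only ones. The fold enrichments of its regions did not move alike: chr19:55094397-55098684 had 26.6 and 19.4 in WT and 66.3 and 70.0 in KO, while the region over the first promoter (chr19:55126678-55127502) had 6.91 and 5.29 against 5.51 and 6.12. Agpat2, the acyltransferase that makes phosphatidic acid, had 3611 and 2771 bp against 6259 and 5170 bp and rose by 8.05 points (SE 1.74, adjusted p = 0.0490). Its region chr2:26599266-26603758 had the best mean rank of all shared regions at members, with 30.3 and 24.1 in WT and 68.8 and 57.9 in KO. With the lists scaled, both KO lay below both WT at Agpat2, a difference of -5.91 points.

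The phosphatidate phosphatases Lpin1 and Lpin2 rose too. Lpin2 had 2584 and 1922 bp (WT) against 7516 and 10386 bp (KO) (7.76 points, SE 1.36, adjusted p = 0.0353), and its ratio of 3.97 was the highest of the step. Lpin1, the main phosphatase of muscle and fat, had 6263 and 4177 bp against 9989 and 9712 bp (3.35 points, SE 0.63, adjusted p = 0.0391). Scaled, both KO lay below both WT at Lpin1 (-1.88 points). The region inside Lpin2 at chr17:71206840-71210070 showed the largest ratio of fold enrichment of any shared region at members, 4.10, from 12.2 and 8.44 to 37.6 and 47.2. Agpat3 had 1843 and 1360 bp against 4509 and 4734 bp and rose by 2.92 points (SE 0.27, adjusted p = 0.0171).

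The last steps to triglyceride gave a mixed picture. Dgat2, the diacylglycerol acyltransferase that esterifies newly made fatty acids, had 5679 and 3487 bp (WT) against 8784 and 6986 bp (KO) without a call (6.73 points, SE 2.29, adjusted p = 0.107). Scaled, both KO lay below both WT at Dgat2 (-5.64 points). Dgat1, the other acyltransferase, had 233 and 300 bp against 555 and 541 bp and rose by 0.94 points (SE 0.20, adjusted p = 0.0496), and scaled its difference is -0.41 points. Pnpla3, a lipid droplet protein gene, had 1935 and 1224 bp against 2770 and 3500 bp (adjusted p = 0.0684), and scaled both KO lay below both WT (-1.62 points). Gpd1, which makes glycerol 3-phosphate, overlapped between genotypes, with KO 8 and WT 2 both at 4402 bp and the other 2 libraries at 2954 bp (WT 4) and 5434 bp (KO 7). With the lists scaled, both KO lay below both WT at Gpd1, a difference of -11.8 points. Mogat1, the monoacylglycerol acyltransferase, had 925 and 724 bp against 1761 and 1602 bp (adjusted p = 0.0734), and Agpat1 and Lpin3 likewise had both KO above both WT without a call (adjusted p = 0.0588 and 0.0574). Scaled, both KO lay below both WT at Mogat1 (-0.29 points) and Agpat1 (-1.16 points), and Lpin3 overlapped (0.48 points). The promoter region of Mogat1, which holds the DR1 match, had fold enrichments of 14.9 and 11.2 in WT and 19.0 and 26.95 in KO.

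Of the regulators, Thrsp and Mlxipl rose. Thrsp, the thyroid hormone responsive Spot 14 gene that accompanies lipogenesis, had 1153 bp (WT 2) and 985 bp (WT 4) against 5104 bp (KO 7) and 3824 bp (KO 8). Its coverage went from 4.34% ± 0.48 (SD, n = 2) to 18.1% ± 3.68 (n = 2), which at 13.8 points (SE 2.08, adjusted p = 0.0290) was the largest difference among the members. Mlxipl had 3287 and 2858 bp against 5907 and 6478 bp (4.46 points, SE 0.44, adjusted p = 0.0178), and scaled both KO lay below both WT (-1.95 points). Its 2 strongest regions had lower fold enrichments in KO: chr5:135100664-135101590 went from 18.8 and 17.1 to 11.3 and 14.6, and chr5:135107650-135109504 from 19.7 and 14.7 to 13.0 and 12.4. Srebf1 had 1022 and 559 bp against 3396 and 1916 bp, apart but not called (4.14 points, SE 1.37, adjusted p = 0.102). Of its regions, 1 was KO-only and the shared one over the third listed promoter had 6.38 and 8.24 in WT and 11.5 and 14.0 in KO.

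Of the 186 PPARg regions at these genes 64 were shared, 32 KO-only and 2 WT-only, and 88 belonged to no class. Of those 88, 52 were called in 1 KO library alone, 10 in 1 WT library alone and 26 in some libraries of both genotypes. Shared regions lay at 24 of the 32 genes (64 regions), where 24% of all genes have one, and KO-only regions at 17 genes (32 regions), against 19.1% of all genes. With lists of equal peak number KO-only regions lay at 6 members, and no share of all genes is given for that setting. Windows of longer genes hold more regions, and the shares were not adjusted for length. The KO-only regions were the weaker ones, with a median within-list percentile of 33.4 by −log10 q against 74.0 for shared regions. At the 64 shared regions the ratio of mean fold enrichment in KO to WT had a median of 1.58 and ran from 0.63 (Elovl5) to 4.10 (Lpin2), and both KO exceeded both WT at 42. Over all 10130 shared regions the median was 1.59 and 67.5% had both KO above both WT, values close to those of the members' regions. The medians by step were 2.11 for synthesis (5 regions), 1.59 for elongation (11), 1.58 for the regulators (7), 1.56 for carbon supply (2), 1.52 for triglyceride assembly (32) and 1.51 for desaturation (7). Summits lay mostly away from the listed start sites. Of shared regions at genes with a listed promoter 6 of 53 summits were within 1 kb, and of KO-only regions 4 of 32. No share over the genome is given for these distances. The listed promoters of Lpin1, Acaca and Acacb had no H3K4me3 peak in either library. At Lpin1 an H3K4me3 region of 4527 bp, overlapped by PPARg peaks of all 4 libraries, had its summit 21892 bp from the listed start site. H3K4me3 peaks of at least 1 library overlapped 24 of 64 shared regions (24.7% over the genome). They overlapped 9 of 32 KO-only regions (15.3%).

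**Figure D3:**
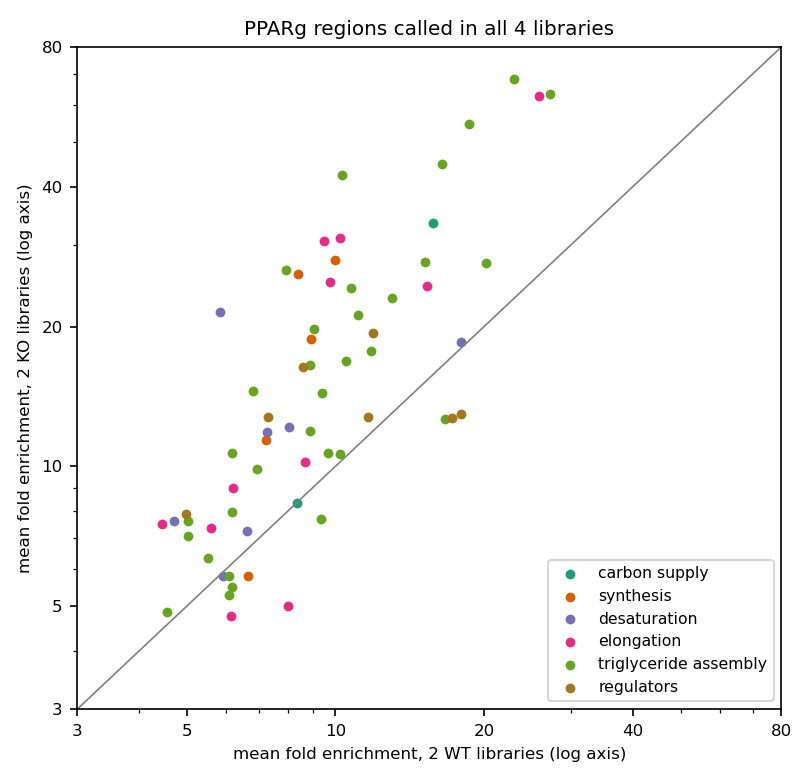
Mean fold enrichment of the 64 PPARg regions called in all 4 libraries at the 32 genes, WT on the horizontal and KO on the vertical log axis, coloured by step, with equal values on the diagonal. Most points lie above the diagonal (52 of 64), the highest at Gpam, Agpat2 and Elovl5, and of the 3 points furthest below it on the right 2 are at Mlxipl and 1 at Gpd1.

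Most PPARg regions of both kinds lay under H3K27ac. Of 64 shared regions 60 overlapped an H3K27ac peak in each of the 6 H3K27ac libraries (87.0% of shared regions over the genome did), and of 32 KO-only regions 26 did (57.3%). At those 26 the mark was called in WT as well as in KO. Few PPARg regions met CTCF: 5 shared and 0 KO-only regions overlapped a CTCF peak in all 4 CTCF libraries (5.25% and 2.70% over the genome). With a CTCF peak in any library counted, 9 shared and 2 KO-only regions did (8.83% and 4.25% over the genome). PPARg coverage of cell type markers was read in the same lists, whose own KO to WT ratio was 2.63. The 8 hepatocyte markers had 18024 to 18752 bp in WT and 50520 to 56541 bp in KO, and the 4 adipocyte markers 5854 to 6232 bp and 16330 to 19479 bp, with none of the 4 at 0. The 5 markers of Kupffer cells and macrophages had 0 bp in WT and 717 to 974 bp in KO, with Clec4f, Cd5l and Marco at 0. The 5 stellate cell markers had 0 bp in WT and 0 to 304 bp in KO, and the 5 lymphocyte markers 0 and 0 to 644 bp. The 4 cholangiocyte markers had 0 to 188 and 0 to 614 bp, and the 5 endothelial markers 2977 to 3614 and 4948 to 7809 bp. The 4 neural stem cell markers were at 0. The part of these cell types in the result was not tested.

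H3K27ac covered every one of the 32 genes in at least 1 library, 31 of them in all 6 (68.0% and 57.3% of all genes), and none passed the test between genotypes. With limma 0 members passed an adjusted p under 0.05 in either direction (0% of the 14880 genes with varying coverage rose and 0% fell). Without adjustment, 0 passed a p of 0.05 either way, beside 5.14% of all genes higher in KO and 1.06% lower. With a variance prior that follows mean coverage the count was 0 too. The median coverage was 22.3% in WT and 22.6% in KO and the median difference was 1.78 points, beside 0.92 over all genes that varied, but it was -0.65 points without KO 4, 0.056 without WT 4 and -1.51 points with the lists scaled. The 3 KO libraries exceeded the 3 WT libraries at 2 members (10.2% of all genes) and lay below at 0 (1.57%). With the lists scaled they lay below at Elovl2 (-10.5 points), Elovl6 (-6.86), Mlxipl (-6.70) and Lpin2 (-5.91), and above at Scd2 (3.16) and Mogat1 (1.33). The shares of 10.2% and 1.57% are of the unscaled lists, and none is given for the scaled ones. Shared H3K27ac regions lay at 31 members (77 regions, 57.2% of all genes have one), and KO-only and WT-only regions at 0 (1.85% and 0.306% of all genes). Among length-matched genes, the members' median percentile was 86.4 in WT and 81.7 in KO. It was 79.6 and 77.6 for synthesis, 94.6 and 92.0 for elongation and 92.5 and 93.1 for triglyceride assembly.

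The 4 genes with the highest H3K27ac coverage in WT all belong to triglyceride assembly. Dgat2 had 73.0, 80.3 and 75.7% of its window covered in WT 1, 2 and 4, against 75.4, 70.8 and 80.5% in KO 2, 3 and 4. Gpd1 (62.1% ± 8.40 in WT and 72.7% ± 8.34 in KO, SD, n = 3), Agpat2 (61.9% ± 11.0 and 66.2% ± 10.8) and Gpam (58.2% ± 2.38 and 57.8% ± 0.64) followed, with Fads2 (55.8% ± 5.49 and 61.4% ± 12.6) and Thrsp (55.6% ± 4.12 and 57.6% ± 1.43). At each of these 6 genes the genotypes overlapped. The longest unbroken stretch lay over Gpam, a region of 38896 bp called in all 6 libraries and overlapped by PPARg peaks in all 4 PPARg libraries and by no CTCF peak. At the low end Elovl7 was at 0 except for 354 bp in KO 3.

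Genes central to synthesis had moderate H3K27ac coverage that overlapped between genotypes in the unscaled lists. Fasn had 20.8, 17.7 and 15.5% in WT and 15.9, 21.7 and 19.7% in KO. Acaca had 5.04, 6.54 and 5.36% against 4.37, 5.62 and 7.28%, a low share of a very long gene. Acly had 19.9, 22.8 and 23.7% against 14.6, 22.4 and 21.3%, and Me1 had 4.58, 3.41 and 2.44% against 4.20, 4.30 and 7.00%. In all 4 genes the genotypes overlapped. Scd1 varied widely within each genotype, at 8.46, 0.84 and 0.04% in WT and 1.72, 8.14 and 8.85% in KO. Elovl6 had 27.1, 33.0 and 26.9% against 20.2, 27.8 and 30.3%, and Pnpla3 10.3, 17.1 and 13.3% against 14.4, 16.9 and 21.7%. Of the transcription factors, Srebf1 had 48.1, 35.1 and 42.5% against 36.3, 37.6 and 43.9%. Mlxipl had 14.9, 22.1 and 16.6% against 12.1, 11.4 and 16.7%, a difference of -4.46 points (SE 2.44, adjusted p = 0.806).

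**Figure D4:**
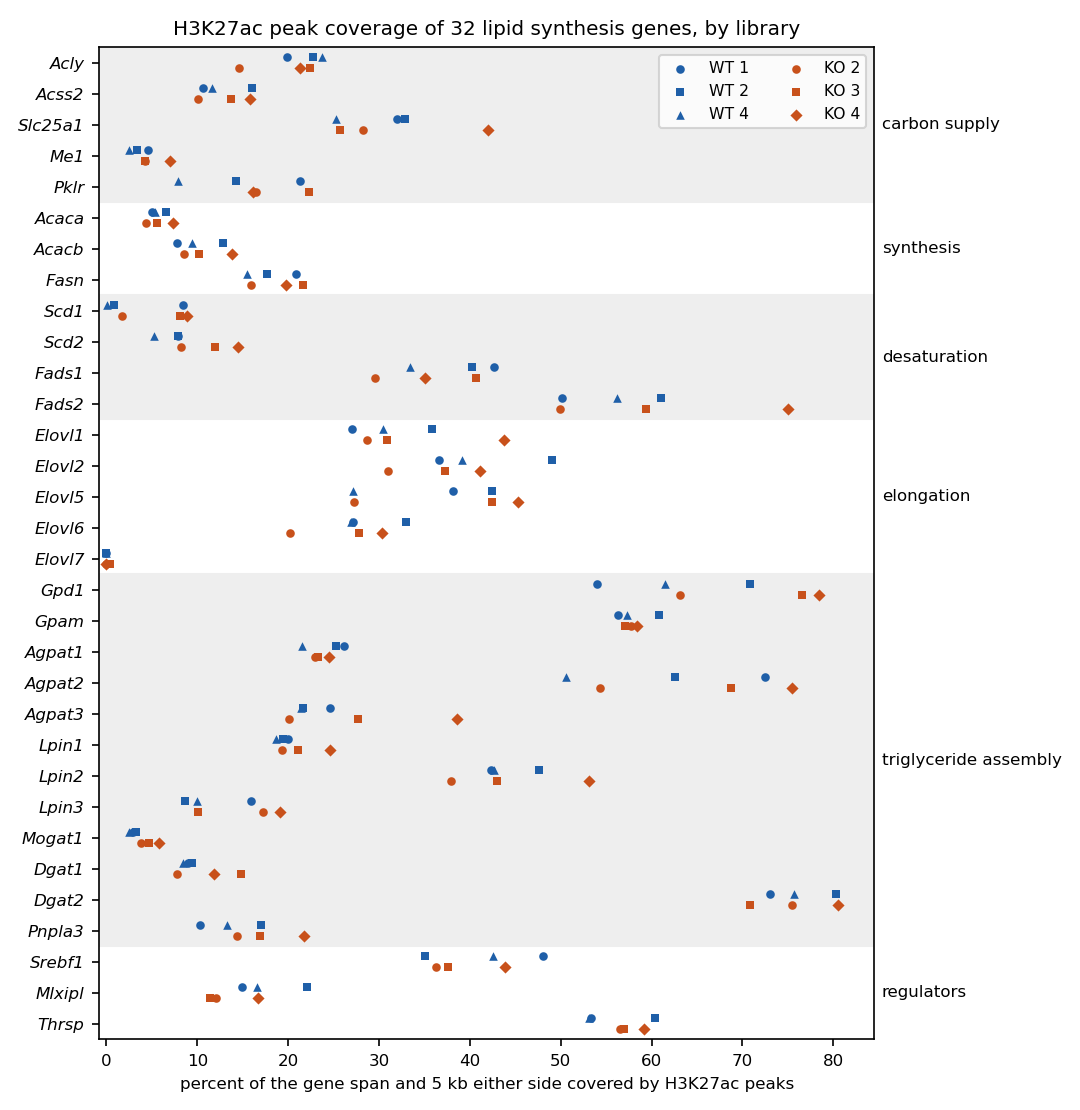
Percentage of each gene's window (span and 5 kb either side) covered by H3K27ac peaks, 1 point per library, 3 WT in blue and 3 KO in orange, genes grouped by step. Blue and orange points overlap at 30 of 32 genes; at Scd2 and Mogat1 all 3 orange points lie to the right, and the orange diamonds (KO 4) are often the rightmost.

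The 2 members with KO above WT were Scd2 and Mogat1. Scd2, the desaturase isoform that is low in adult liver and prominent in brain and other tissues, had 7.84, 7.82 and 5.28% in WT and 8.17, 11.9 and 14.5% in KO, a difference of 4.54 points (SE 1.85, adjusted p = 0.793). Mogat1 had 2.91, 3.29 and 2.46% against 3.80, 4.67 and 5.83% (1.88 points, SE 0.77, adjusted p = 0.793). Neither passed, and the nearest libraries of the 2 genotypes were close in both. In the same libraries the 5 stellate cell markers had 4560 to 12452 bp of H3K27ac in WT and 20273 to 36549 bp in KO, with none at 0 in every library. The 5 endothelial markers had 100085 to 116354 bp and 99578 to 153190 bp, and of the 4 cholangiocyte markers Krt7, Krt19 and Epcam were at 0 throughout. Their part in the values of Scd2 and Mogat1 was not tested.

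CTCF peaks were fewer at the genes in KO liver, as in the lists as a whole. They covered 28 of the 32 genes in at least 1 library (60.8% of all genes), with Slc25a1, Scd1, Elovl5 and Dgat1 at 0 in all 4. Both KO lay below both WT at 12 members (37.3% of all genes with a CTCF peak) and above at 0 (3.83%), and with limma 0 fell and 0 rose at an adjusted p under 0.05, as over all 13306 genes (0% and 0%). Without adjustment, 5 passed with less coverage in KO and 0 with more (9.68% and 0.549% of all genes), and with a variance prior that follows mean coverage 0 passed. Summed over the 32 genes, KO had 0.681 times the WT length, against 0.756 in the whole lists. The median difference was -0.47 points, -0.03 points with the lists scaled, -0.14 without WT164 and -0.99 without WT165. By step the ratio was 0.518 for synthesis, 0.666 for triglyceride assembly, 0.668 for elongation, 0.747 for the regulators, 0.750 for carbon supply and 0.878 for desaturation. Among length-matched genes, the members' median percentile was 71.6 in WT and 69.8 in KO.

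**Figure D5:**
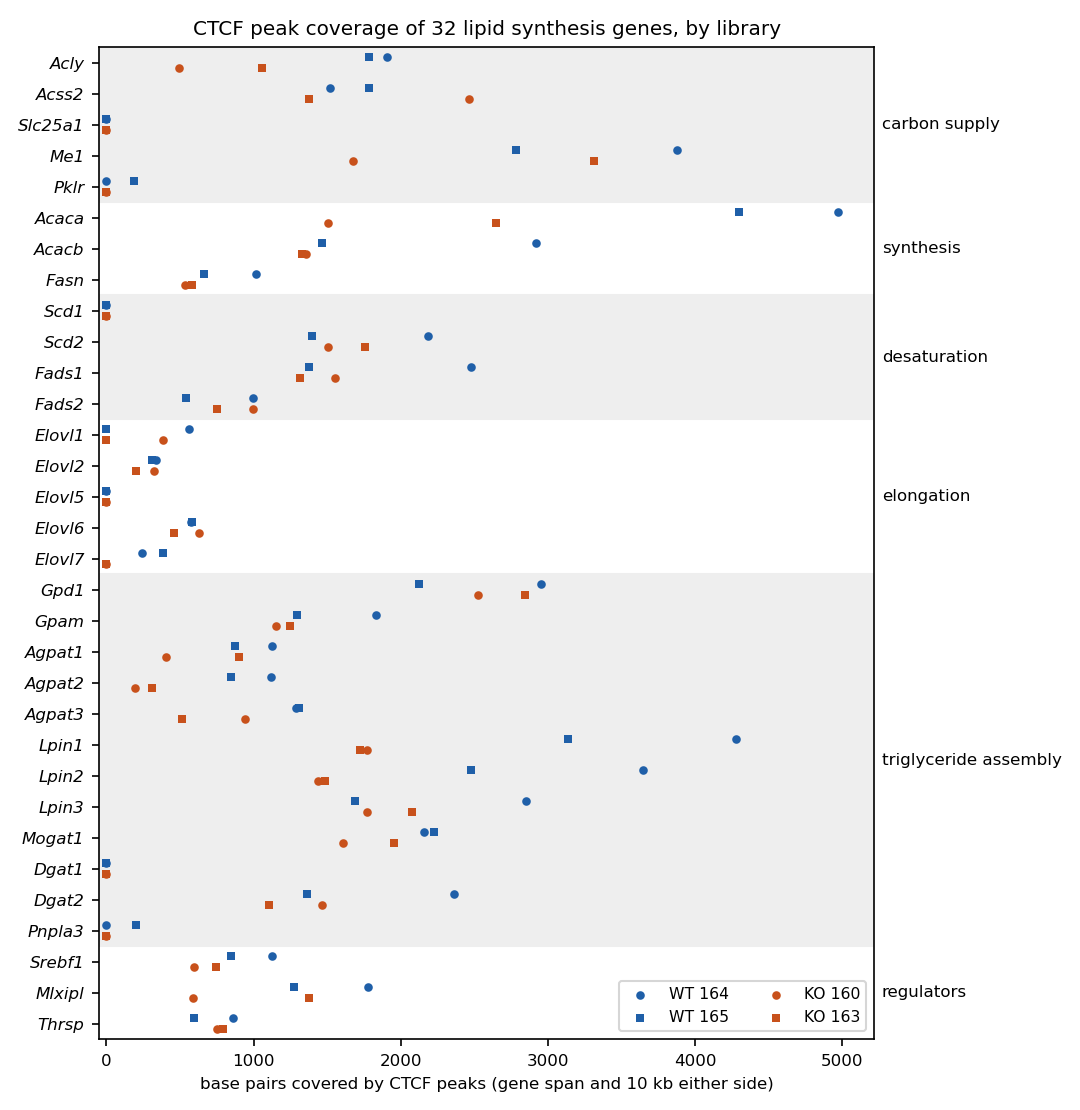
Base pairs covered by CTCF peaks in each gene's window (span and 10 kb either side), 1 point per library, WT164 and WT165 in blue and KO160 and KO163 in orange, genes grouped by step. Acaca, Lpin1 and Lpin2 show the widest gaps between blue and orange points, and Slc25a1, Scd1, Elovl5 and Dgat1 are at 0.

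The largest differences in CTCF percentage among members with groups apart were at Agpat2, Lpin2, Acly and Lpin1. Agpat2 had 1121 bp (WT164) and 846 bp (WT165) against 192 bp (KO160) and 309 bp (KO163), a difference of -2.34 points (SE 0.42, adjusted p = 0.435). Lpin2 had 3650 and 2478 bp against 1437 and 1486 bp (adjusted p = 0.477), Acly 1904 and 1782 bp against 493 and 1057 bp (adjusted p = 0.448) and Lpin1 4280 and 3137 bp against 1768 and 1720 bp (adjusted p = 0.454). In each the lower WT library stayed above the higher KO library. Acaca had the most CTCF of the list in WT, at 4970 and 4297 bp against 1504 and 2649 bp (adjusted p = 0.477), and Fasn had 1017 and 664 bp against 533 and 581 bp. Srebf1 and Gpam were apart as well, at 1124 and 849 against 594 and 747 bp and at 1831 and 1297 against 1154 and 1247 bp, although Gpam is 0.04 points higher in KO scaled and 0.23 points higher with stricter peaks or equal peak numbers, while Me1, Elovl6, Dgat2, Mlxipl and Pnpla3 overlapped. Thrsp had 863 and 592 bp against 753 and 789 bp.

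Sites that lost their CTCF call lay at 9 of the 32 genes, where 11.3% of all genes have one. Such a site has a peak in both WT and neither KO library. The 12 sites lay at Acly (2), Acaca (2), Lpin1 (2), Me1, Fads1, Elovl7, Gpam, Agpat3 and Lpin2, and 9 of them inside the gene span. Shared sites lay at 23 genes (39 sites, 46.3% of all genes have one) and sites gained in KO at 0 (0.21%). The lost sites ranked low, with a median within-list percentile of 25.4 against 69.6 for shared sites. With lists of equal peak number 0 members had a lost site, and no share of all genes is given for that setting. The best ranked lost sites were chr12:16639316-16639974 in Lpin1 (fold enrichments of 6.33 and 9.36 in WT), chr10:78359019-78359350 beside Agpat3 (11.4 and 5.03) and chr11:84264199-84265012 in Acaca (9.20 and 6.14). The strongest site at any member was shared, chr7:99150538-99152898 beside Dgat2, with 32.6 and 42.3 in WT and 29.6 and 29.8 in KO.

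Lost CTCF sites and PPARg regions met at 1 place. In Acly a lost site (chr11:100486075-100486470, fold enrichments of 5.56 and 6.81 in WT) overlapped a KO-only PPARg region (chr11:100485907-100486367, 5.25 and 4.73 in KO), and H3K27ac peaks of all 6 libraries lay there. At Elovl7 a lost site had its summit at position -19 from the listed start site, with 4.11 and 4.28 in WT, and the gene has no PPARg peak. The other 10 lost sites overlapped no PPARg peak, and 2 of the 12 lay under an H3K27ac peak in all 6 libraries.

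H3K4me3 was measured in 1 library per genotype, so its differences have no replicate check. Fewer bp were covered in KO at 27 members and more at 5, where 69.3% of the 13256 genes with a difference had fewer and 30.7% had more. The summed ratio was 0.841, against 0.879 for the lists. With the lists scaled more lay in KO at 12 members, and with peaks of −log10 q of at least 10 alone at 2. All 12 genes of triglyceride assembly had fewer bp unscaled, and 8 of the 12 scaled. The largest negative differences in percentage of the window were at Gpd1 (3708 to 2523 bp), Agpat2 (3581 to 2386 bp), Slc25a1 (3944 to 3601 bp, but 1.09 points higher in KO scaled) and Srebf1 (2749 to 1931 bp). More bp in KO were at Elovl1 (1762 to 2237 bp), Thrsp (246 to 610 bp), Elovl7 (214 to 999 bp), Acss2 (1238 to 1325 bp) and Acaca (2896 to 3020 bp). Fasn had 2274 and 1971 bp, Acly 3433 and 3172 bp, Me1 1990 and 1441 bp, Scd1 433 and 381 bp, and Mlxipl 2403 and 1964 bp in WT and KO. The values show how wide the called stretch was, and every one of the genes held the mark in both libraries.

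H3K27me3 peaks lay at 5 of the 32 members, while 16.2% of all genes had one. The mark was measured in 1 library per genotype. Scd2 had 866 bp in WT and 1370 bp in KO, Elovl7 656 and 779 bp, Lpin3 198 and 406 bp, Lpin1 0 and 328 bp, and Pnpla3 739 and 0 bp. More bp in KO at 4 of 5 compares with 67.6% of the 3538 genes that differ, and fewer at 1 with 32.4%. With peaks of −log10 q of at least 3 alone, no member differed between the libraries. Scd2, Elovl7 and Lpin3 had it in both libraries, and no PPARg region of any kind at a member overlapped an H3K27me3 peak.

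Further genes of the pathway, 34 in all and not members, were read in the same way. PPARg peaks covered 24 of them (46.3% of all genes), both KO exceeded both WT at 21 of the 24 (72.3%), and 14 rose with limma (34.2%) but 0 with the lists scaled. Those that rose include Srebf2, Scap, Insig2, Nr1h3, Ppargc1b, Pparg, Ppara, Pgd, Idh1, Hacd2, Hacd3, Gpat4 and Mogat2. Nr1h3, the oxysterol receptor LXRa that activates Srebf1, rose from 1.766 to 7.23% covered (adjusted p = 0.0112), and Insig2, which holds SREBP in the endoplasmic reticulum, from 4.76 to 16.6% (adjusted p = 0.0151). Ppara, the receptor of fatty acid oxidation, rose from 14.1 to 30.4% (adjusted p = 0.0151), a bp ratio of 2.16 that is below the 2.63 of the whole lists. KO-only PPARg regions lay at 12 of the 34 (19.1% of all genes) and shared ones at 22 (24%). CTCF coverage was lower in both KO at 10 of the 24 with a peak (37.3% of all such genes) and lost sites lay at 5 of the 34 (11.3%). Calls by limma were 0, and without adjustment 4 were lower and 0 higher, beside 9.68% and 0.549% of all genes. H3K27ac was higher in all KO at 3 (10.2%) and lower at 2 (1.57%), again with 0 calls. Without adjustment 3 were higher and 2 lower, beside 5.14% and 1.06% of all genes.

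Elovl3, an elongase of saturated and monounsaturated chains, was among those with lower H3K27ac in all KO libraries. Elovl3 had 40.1, 35.8 and 39.2% of its window under H3K27ac in WT 1, 2 and 4, against 8.20, 3.88 and 8.06% in KO 2, 3 and 4 (-31.6 points, SE 1.7725, adjusted p = 0.106 by limma), so the genotypes were far apart without a call. Its H3K4me3 went from 2547 bp to 0 in the single libraries. PPARg there had 577 and 1190 bp (WT) against 1827 and 778 bp (KO), which overlapped. The H3K27ac differences of the 5 elongases among the members ran from -5.14 points at Elovl2 to 3.32 points at Elovl1.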

How the data were processed

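Chromatin immunoprecipitation followed by sequencing of mouse liver gave 18 peak lists on build mm10. Per the submitters' processing notes, the tools were deepTools 3.1.3, Picard, MACS2 2.1.2 and the aligner BWA 0.7.12. The authors deposited 1 list per library, so peaks were called per library and no replicates were pooled. Each peak carries a fold enrichment, −log10 p and −log10 q values as deposited by the authors, and a display score that the authors deposited and that was not used here. In the narrow lists the authors also deposited a summit offset. The lists hold no reads, so depth is unknown and its effect on the number and length of peaks cannot be separated from that of genotype.

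For each protein-coding gene on chromosomes 1 to 19, X and Y, the percentage of the window under peaks was computed with Python 3.11.15, numpy 2.4.6 and pandas 2.3.3. Genotypes were compared with limma 3.58.1 in R 4.3.3 over all genes whose coverage varied, with an adjusted p (Benjamini-Hochberg) under 0.05 as the threshold, on unscaled percentages. The script was tested on simulated data. SE is the standard error of the difference. Peaks of a target that overlapped by at least 1 bp were merged into regions. H3K4me3 and H3K27me3 have 1 library per genotype and no test. The labels do not state that replicates came from separate animals, so p-values measure only the spread between these libraries.

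The members, the 34 other genes of the pathway and the cell type markers were chosen with earlier results of these data known. Acaca, Fasn, Scd1, Acly, Me1, Srebf1, Mlxipl, Elovl6, Gpam, Dgat2 and Pnpla3 were named for every target with coverage, together with the 4 members of largest difference in each direction whose genotypes did not overlap. Further members were named to account for each step. Alternatives covered scaling, thresholds, equal peak numbers, windows, overlap, left-out libraries, a replicate block and a reference of 200 genes. A variance prior that follows mean coverage and the comparison within 1 kit were added after the data were seen. Promoter sequences are from the RefSeq table of GRCm38.p6, in which 26 of 32 members matched. Sequences of other regions were not used here. Values of 1 of the other genes of the pathway are not reported here.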

Additional observations from a re-analysis of the deposited data

How the results depend on the processing

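Scaling every list to the same total covered length left 0 PPARg calls over all genes (3483 unscaled) and 0 among members (15), with a member median of 0.226 points. Among the genes named by rule, scaling turned PPARg at Scd1 (-1.14), Agpat2 (-5.91), Dgat2 (-5.64), Pnpla3 (-1.62) and Mlxipl (-1.95 points), H3K27ac at Acaca (-0.762) and Fasn (-1.30) and CTCF at Elovl6 (0.0982) and Gpam (0.0378). Other members turned too, such as PPARg at Gpd1 (-11.8) and Fads2 (-6.54). In all, 12 members were lower in KO for PPARg scaled, and 21 for H3K27ac (9 unscaled). The member medians became -1.51 points for H3K27ac and -0.0307 for CTCF, 12 members had more H3K4me3 in KO and 2 less H3K27me3. With stricter peaks (−log10 q of at least 10) PPARg gave 1865 calls and 0 members with WT-only regions, lost CTCF sites lay at 5 members, H3K4me3 was longer at 2 and CTCF at Gpam was 0.235. With −log10 q of at least 3, H3K27me3 differed at 0 members either way, 1 member had a WT-only H3K27ac region, and H3K27ac was -0.615 at Acaca and -3.12 at Fasn. Lists of equal peak number gave 1480 PPARg calls, 8 of them members, a median of 2.58 points, KO-only regions at 6 and WT-only regions at 6 members, lost CTCF sites at 0, CTCF at Gpam of 0.235, and H3K27ac of -0.104 at Acaca and 0.620 at Dgat2. A window of 10 kb gave 3.20 for H3K27ac at Dgat2. Requiring 25% of a region gave 1 member with a KO-only H3K27ac region. Shares of all genes with a region class are given for the main setting alone. With 200 reference genes the PPARg WT percentile was 86.0. With the replicate block, H3K27ac had 0 calls, a median of 1.26 points, -0.123 at Acaca and 1.31 at Srebf1. For H3K27ac, deviations of same-numbered WT and KO libraries from their genotype means correlated at -0.200 (number 2) and -0.172 (number 4). These deviations are of unscaled coverage and carry list size as well, so they cannot decide whether the libraries were paired. Leaving out 1 library gave these ranges: for H3K27ac a median of -0.651 to 2.60, KO-only regions at 0 to 5 and WT-only at 0 to 2 members, and single genes from -0.652 to 0.803 (Acaca), -0.197 to 2.68 (Fasn), -4.99 to 0.0669 (Elovl6), -1.34 to 0.923 (Gpam), -3.22 to 1.61 (Dgat2) and -6.05 to 0.466 (Srebf1). For PPARg they were 0 to 3585 calls, 0 to 8 members, medians of 2.61 to 3.79 and WT-only regions at 3 to 7 members. For CTCF they were medians of -0.987 to -0.142, KO-only sites at 0 to 1 member and -0.0928 to 0.0381 at Elovl6. A variance prior that follows mean coverage, chosen after seeing the data, gave 4345 PPARg calls with 18 members and 0 for H3K27ac and CTCF. Of 433 values of named genes under alternatives 353 kept their direction and side of the threshold. For PPARg and CTCF these include fits with a single library left in 1 genotype, where the side of the threshold says little. Depth is unknown and limits every list.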
